A study of Mus musculus with 2 samples.

Results

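The interleukin-2 and interleukin-21 axis was followed through 6 genes: the cytokine genes Il2 and Il21, the interleukin-21 receptor gene Il21r, and the 3 chains of the interleukin-2 receptor, Il2ra, Il2rb and Il2rg. They were picked by symbol, and all 6 were found among the 32285 genes of the count matrices. The values come from droplet-based single-cell RNA sequencing of leukocytes from hand-picked pancreatic islets of NOD mice, an inbred strain that develops autoimmune diabetes. Every mouse was a female aged 12 weeks, and live islet cells with CD45 (the leukocyte marker) and without CD31 (the endothelial marker) were sorted. There were 2 groups with 1 library each, WT NOD and NOD.Cxcl16-/-, which is the same strain with a deletion of the gene for the chemokine CXCL16, and no other treatment is given in the labels. With 1 library a group, no difference between the groups could be tested, and all intervals below cover counting error only.

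Interleukin-2 is made mainly by activated helper T cells and drives growth of T and NK cells and the survival of regulatory T cells. Its receptor has an alpha chain (CD25, from Il2ra) that raises affinity, a beta chain (CD122, from Il2rb) shared with interleukin-15, and the common gamma chain (CD132, from Il2rg), which is also part of the receptors for interleukins 4, 7, 9, 15 and 21. Interleukin-21 is made by follicular and other activated helper T cells, pairs its own receptor with the common gamma chain, signals mostly through STAT3, and acts on B cells, CD8 T cells and NK cells. In NOD mice Il2 and Il21 lie together in the diabetes susceptibility interval Idd3, and mice of this strain that lack the interleukin-21 receptor are protected from diabetes. In infiltrated islets, helper T cells that recognise beta-cell antigens are a known source of both cytokines.

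On the mouse build GRCm38 both cytokine genes lie on the minus strand of chromosome 3, Il2 at chr3:37120523-37125959 with 4 exons and Il21 at chr3:37222759-37232636 with 5 exons, 96.8 kb apart. The promoters of the 2 cytokine genes are printed because they are the regulatory sequences of the transcripts that set helper T cells apart below. Each line holds the 240 bases from 250 to 11 bases upstream of the RefSeq start on GRCm38.p6, read 5' to 3' on the gene's minus strand, for Il2 chr3:37125965-37126204 and for Il21 chr3:37232647-37232886. Capitals mark GGAAA, the core that NFAT factors bind, or its reverse complement.
Il2: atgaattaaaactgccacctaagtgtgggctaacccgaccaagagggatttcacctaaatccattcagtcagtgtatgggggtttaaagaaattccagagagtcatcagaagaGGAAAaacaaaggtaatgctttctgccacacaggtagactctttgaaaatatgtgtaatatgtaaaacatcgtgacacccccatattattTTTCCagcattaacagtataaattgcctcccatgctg
Il21: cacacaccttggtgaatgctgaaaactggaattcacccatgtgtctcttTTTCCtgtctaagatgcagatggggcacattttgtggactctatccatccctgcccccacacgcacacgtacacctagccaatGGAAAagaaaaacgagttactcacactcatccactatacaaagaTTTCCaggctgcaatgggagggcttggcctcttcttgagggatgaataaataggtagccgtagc
The Il2 window held 2 such matches, 137 and 47 bases upstream of the start, and one TATAAA 31 bases upstream. The Il21 window held 3 matches, 201, 118 and 74 bases upstream, and no match to TATAAA on either strand. The motif GGAAA is short, and 54.1% of 32851 RefSeq promoter windows of the same length held it on either strand, while TATAAA was in 12.1%. Neither TGANTCA, an AP-1 motif found in 6.58% of windows, nor TTCNNNGAA, a STAT motif found in 6.77%, was in the windows of Il2, Il21, Il21r, Il2ra or Il2rg. A match of letters is a description of the window and no measurement of binding.

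Before filtering, the libraries held 13859 (WT NOD) and 10554 (NOD.Cxcl16-/-) cell barcodes with 93553185 and 98681133 UMIs. After filtering, 10715 and 9323 cells remained, with medians of 3867 and 4888 UMIs per cell. Barcodes common to both libraries numbered 45. Cells were assigned to types by fixed marker gates on raw UMIs, none of which used a member gene, and 5075 (47.4%) and 4616 (49.5%) of the kept cells fell in a gate. Levels are given as CPM, the UMIs of a gene per 1000000 UMIs of the cells of a gate, and levels of different genes are not compared because they are not scaled by length. Cxcl16 itself stood at 78.3 CPM over all kept WT NOD cells and at 97.9 CPM in the library labelled NOD.Cxcl16-/-. In macrophage-like cells it was 829 and 502 CPM. Where the deleted sequence lies relative to the counted 3' ends is not given in the sources used here, so these transcripts do not check the genotype, and every direction between the libraries below rests on the label.

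Il21 was a transcript of CD4 T-like cells, defined as T cells with a Cd4 UMI and without Foxp3 or Cd8. In this gate 434 UMIs gave 90.3 CPM (95% exact Poisson interval 82.0 to 99.3) for WT NOD, and 396 UMIs gave 72.2 CPM (65.3 to 79.7) for the library labelled NOD.Cxcl16-/-. The interval of this gate lay apart from that of the next gate, CD8 T-like cells, in both libraries. CD8 T-like cells stood at 5.74 CPM (59 UMIs) and 4.19 CPM (30 UMIs), and Treg-like cells, with a Foxp3 UMI, at 3.65 CPM (3 UMIs) and 4.14 CPM (5 UMIs). From CD8 T-like cells downward the intervals of neighbouring gates overlapped. Gamma-delta T-like and NK-like cells held no Il21 UMI in either library, which at 3 counts allows up to 3.80 and 4.78 CPM in gamma-delta T-like and 11.9 and 12.5 CPM in NK-like cells. B-like cells, which should lack the transcript, held 1 UMI in 1119 WT NOD cells (0.20 CPM) and none in 1170 cells of the other library, which allows up to 0.565 CPM.

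An Il21 UMI was carried by 199 of 1052 CD4 T-like cells (18.9%) in the WT NOD library and by 161 of 1052 (15.3%) in the other. To compare shares at one depth, each cell was thinned to 2000 UMIs, which left out 96 and 31 shallower CD4 T-like cells. The thinned shares were 11.9% (95% Clopper-Pearson interval 9.94 to 14.1) and 9.01% (7.33 to 10.9), with overlapping intervals. The thinned share of B-like cells, the background, was 0.0984% in the WT NOD library and 0 of 1127 cells in the other, which allows a share of up to 0.266%. Median depths were 3985 and 4369 UMIs in CD4 T-like cells and 4271 and 4304 UMIs in B-like cells. CD8 T-like cells stood between, at 1.01% and 0.458%.

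Il21 was spread over many cells. Over all kept cells, 579 WT NOD cells held 1172 UMIs and 452 cells of the library labelled NOD.Cxcl16-/- held 1054. A single UMI was all that 59.4% and 50.7% of these cells carried, 8 and 10 cells carried 10 or more, and the highest cell held 23 and 18. The gates left out much of this signal: ungated cells held 57.4% and 59.0% of the Il21 UMIs. Most of those UMIs lay in T cells with more than 2 myeloid UMIs (417 and 387 UMIs) or in T cells without a Cd4, Cd8 or Foxp3 UMI (181 and 161 UMIs). Among gated Il21-positive cells, 80.6% and 87.0% were CD4 T-like.

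Il2 was rarer per cell and also led by CD4 T-like cells. For WT NOD, 34 of these cells held 115 UMIs, a level of 23.9 CPM (19.8 to 28.7). In the other library 52 cells held 127 UMIs, a level of 23.2 CPM (19.3 to 27.6). One WT NOD cell held 37 of the UMIs, and without it the level was 16.2 CPM. The highest cell of the other library held 16. CD8 T-like cells stood at 2.92 and 2.09 CPM (30 and 15 UMIs), Treg-like cells at 3.65 and 3.31 CPM (3 and 4 UMIs) and gamma-delta T-like cells at 6.34 and 4.78 CPM (5 and 3 UMIs). In the WT NOD library the interval of CD4 T-like cells lay apart from the next gate, gamma-delta T-like cells (upper bound 14.8 CPM), but without the highest cell (12.8 to 20.3 CPM) it overlapped. In the library labelled NOD.Cxcl16-/- it overlapped the wide interval of 56 NK-like cells, which held 2 UMIs (8.33 CPM, 1.01 to 30.1).

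The background of Il2 was higher relative to its signal than that of Il21. B-like cells held 9 and 11 Il2 UMIs, 1.81 and 2.07 CPM. After thinning, 0.492% and 0.444% of B-like cells held an Il2 UMI, against 0.569% and 0.549% of CD8 T-like cells and 2.09% (1.28 to 3.21) and 3.04% (2.07 to 4.28) of CD4 T-like cells. Unthinned shares of CD4 T-like cells were 3.23% and 4.94%. The CD8 T-like share is therefore at the level of the background and is not read as Il2 expression. Over all kept cells 83.2% and 84.2% of the Il2-positive cells carried a single UMI. Gated cells held 172 of 331 and 185 of 451 Il2 UMIs, and the rest lay in ungated cells. Of gated cells with 2 or more Il2 UMIs, 88.9% and 95.2% were CD4 T-like, against 38.2% and 47.7% of gated cells with any.

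**Figure D1:**
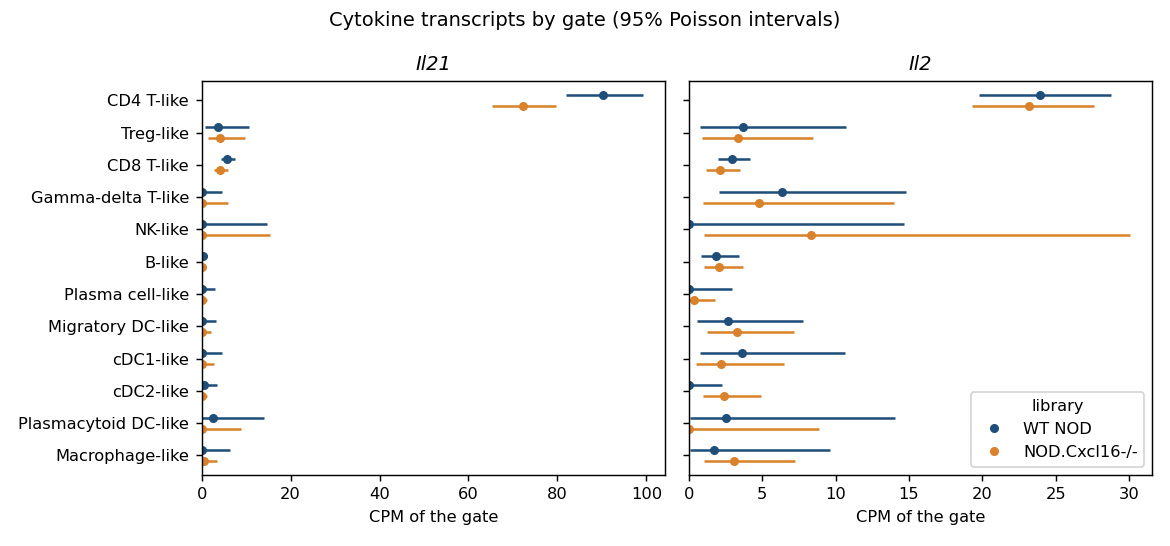
Level of Il21 and Il2 (CPM of the gate, x axis) in 12 gates with at least 20 cells in each library, with 95% exact Poisson intervals of counting error; blue is WT NOD and orange the library labelled NOD.Cxcl16-/-. CD4 T-like cells lead both panels, at 90.3 and 72.2 CPM for Il21 and at 23.9 and 23.2 CPM for Il2.

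Cells with both cytokines were few. In CD4 T-like cells, 9 of 34 Il2-positive WT NOD cells also held an Il21 UMI (26.5%), against 18.7% of Il2-negative cells. In the other library it was 8 of 52 (15.4%), against 15.3%. After thinning, 5 and 2 cells held both. At these numbers, neither a preference for one cell nor its lack was detectable.

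The clusters of CD4 T cells that held the 2 cytokines overlapped only in part. All kept cells were clustered with the 6 member genes left out, so member levels did not place the cells, although genes that vary with them could. Cluster 2, led by Il10, Maf, Lag3 and Cxcr6, held 421 and 277 cells. Il21 stood there at 235 and 205 CPM, and after thinning in 26.6% (22.3 to 31.4) and 25.0% (19.9 to 30.7) of cells. Il2 was nearly missing from it, with 3 and 2 UMIs and thinned shares of 0.528% and 0.379%, at the B-like background.

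Cluster 14, led by Tnfsf8, Tnfsf11 (RANK ligand) and Angptl2, held 453 and 594 cells and carried both cytokines. Il21 stood at 135 and 108 CPM, in 21.3% (17.5 to 25.5) and 14.7% (11.9 to 17.9) of thinned cells. Il2 stood at 40.8 and 25.9 CPM (111 and 97 UMIs, 24 and 34 cells), and at 27.2 and 21.6 CPM without the highest cell. The thinned shares of Il2 were 2.81% (12 of 427 cells) and 2.25% (13 of 578 cells). This cluster also held more Cxcr5, the receptor that guides follicular helper cells, with 28.7 and 29.6 CPM against 4.90 and 3.02 in cluster 2. Bcl6, the follicular helper regulator, stood at 81.3 and 84.6 CPM against 14.1 and 20.4. Other helper genes were higher in cluster 2. Pdcd1 stood there at 175 and 192 CPM against 111 and 144 in cluster 14. Icos stood at 810 and 803 against 563 and 633, and Maf at 1235 and 848 against 376 and 315. Cd40lg and Angptl2 were higher in cluster 14, and Cd200 was similar in both clusters. Ifng, the type 1 helper cytokine, was lower in cluster 14, with 194 and 194 CPM against 362 and 343.

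Cluster 16, led by Cd40lg, S1pr1 and Il7r, held 675 and 840 cells and carried Il2 with little Il21. Il2 stood at 19.3 and 26.9 CPM in 34 and 64 cells, with thinned shares of 3.51% (2.19 to 5.32) and 4.18% (2.89 to 5.82). For WT NOD the CPM of Il2 was below that of cluster 14 and the share above it, so the order of these clusters depended on the measure. Il21 was found there in 6 and 17 cells, at 2.37 and 5.73 CPM. Il7r, the interleukin-7 receptor of resting and memory T cells, stood at 676 and 724 CPM in cluster 16 against 54.5 and 63.5 in cluster 2. Cluster 3, led by Lef1 and Igfbp4, genes of resting naive T cells, held 565 and 491 cells with 1 and 0 Il21 UMIs and 4 and 5 Il2 UMIs. In each library cluster 2 was thus high for Il21, cluster 16 for Il2 and cluster 14 for both. Cluster 2 held 32.7% and 25.8% of the Il21 UMIs of its library and cluster 14 held 31.2% and 38.2%. For Il2, cluster 14 held 33.5% and 21.5% and cluster 16 held 14.8% and 20.8%. At Leiden resolution 0.5, chosen after seeing the data, clusters 2 and 14 fell in one cluster, with an Il21 share of 23.9% and 18.1% and an Il2 share of 1.75% and 1.68%.

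**Figure D2:**
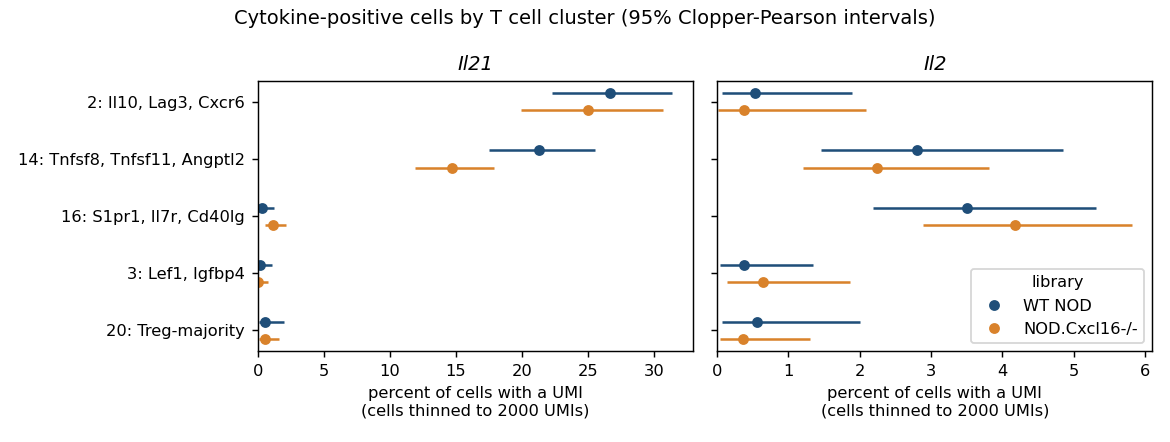
Share of cells with an Il21 or Il2 UMI (percent, cells thinned to 2000 UMIs) in 5 T-cell clusters, with 95% Clopper-Pearson intervals; blue is WT NOD and orange the library labelled NOD.Cxcl16-/-. Cluster 2 is high for Il21 (26.6% and 25.0%) and low for Il2 (0.528% and 0.379%), and cluster 16 is the reverse (Il21 0.334% and 1.14%, Il2 3.51% and 4.18%).

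Genes higher in Il21-positive than in Il21-negative CD4 T-like cells were counted by one rule over both libraries. The 199 and 161 positive cells were compared with 853 and 891 negative cells of the same library, and a gene passed when its CPM ratio was at least 2 in both libraries with at least 20 UMIs in the positive cells of each. Of 5727 genes 75 passed (1.31%), and 38 were at most 0.5 times as high in both. Positive cells were deeper, with medians of 4478 against 3895 UMIs and 5529 against 4254, and the part of depth in these ratios was not tested. Each library is a separate look, with no test.

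The 10 genes with the highest smaller ratio began with 1810009J06Rik, which rested on single cells (58 of 61 and 70 of 70 UMIs in 1 cell). The others were the histone gene Hist1h2af (7.67 and 7.71 times), the proliferation marker Mki67 (4.42 and 3.64), the lysophosphatidic acid receptor gene Lpar3 (6.21 and 3.50), Sccpdh (3.29 and 4.19), Lta for lymphotoxin alpha (3.54 and 3.27), the mitosis genes Nusap1 (3.22 and 3.99) and Birc5 (3.54 and 3.19), Plekho1 (3.15 and 3.49) and the chemokine Ccl3 (3.08 and 8.96). Genes of dividing cells were thus 4 of these 10. Of these 4, Hist1h2af was carried by only 4 and 9 positive cells and Nusap1 by 7 and 11. Without the highest cell the WT NOD ratio of Nusap1 was 1.88. Of the 75 genes, 65 were carried by at least 10 positive cells in each library, and 38 fell below a ratio of 2 when the highest cell was left out. With limits on other lineages' UMIs that grew with depth, chosen after seeing the data, 133 genes passed.

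Of 18 follicular and peripheral helper genes with enough UMIs, 2 passed, and the median ratio of the list was 1.76 and 1.52, beside 1.06 and 1.04 over all genes tested. The 2 were Cd200, a membrane glycoprotein of follicular helper cells (666 against 218 CPM in the WT NOD library, 516 against 197 in the other), and Angptl2 (3.25 and 2.80 times). Cxcr5 reached 1.96 and 2.28 times and the transcription factor gene Tox2 3.21 and 1.78 times, each short of 2 in one library. Bcl6 was 1.70 and 1.08 times as high, and Pdcd1, the gene of PD-1, 1.83 and 1.63 times.

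Of 10 Th lineage genes 3 passed, Lta, Ccl3 and Ccl4 (2.43 and 3.73 times), and Ifng stood at 1.84 and 1.65 times. Of 12 targets of interleukin-2 and STAT5 3 passed, Lta, the feedback inhibitor gene Socs2 (3.04 and 2.62 times) and Tnfrsf4, the gene of OX40 (2.15 and 2.02 times). None of 9 interleukin-21 targets and none of 18 regulators of Il2 passed. Of 10 genes of the common-gamma-chain family only 2 had enough UMIs. One of these 2, Il7r, was lower by the same measure, at 101 against 342 CPM and 88.6 against 357 CPM. Il2 itself was 4.43 times as high in Il21-positive WT NOD cells (58.9 against 13.3 CPM) and 1.45 times in the other library (30.7 against 21.1 CPM), so it did not pass.

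**Figure D3:**
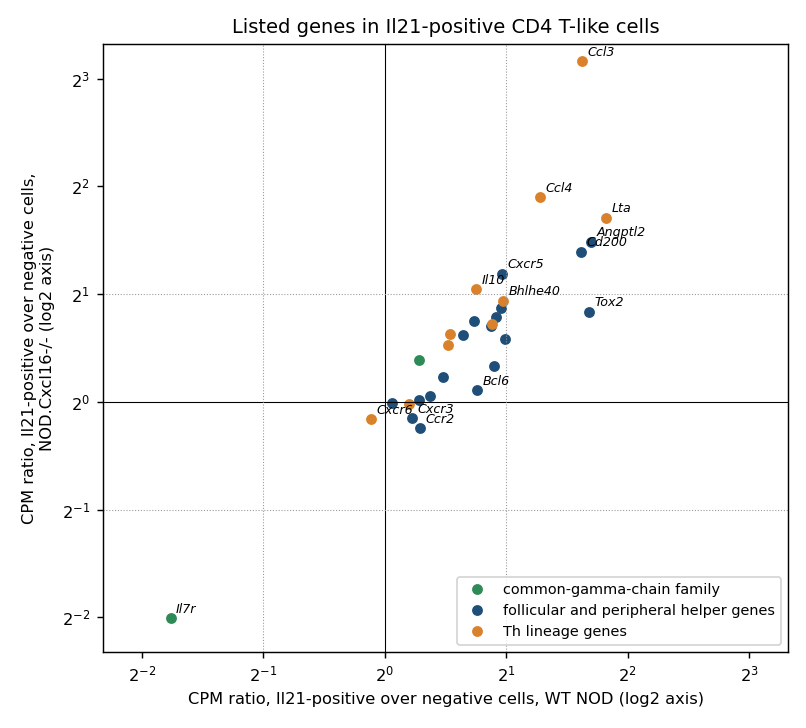
CPM ratio of Il21-positive over Il21-negative CD4 T-like cells in the WT NOD library (x) and the library labelled NOD.Cxcl16-/- (y), log2 axes, for listed genes with enough UMIs; colours are gene lists and dotted lines mark ratios of 2 and 0.5. Ccl3, Ccl4, Lta, Cd200 and Angptl2 lie past 2 on both axes and Il7r below 0.5 on both (0.295 and 0.249).

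The 34 and 52 Il2-positive CD4 T-like cells gave a shorter list. Of 1565 genes 6 passed the same rule (0.383%). Ccl1 and Xcl1 were carried by at most 4 positive cells of a library. Tnfsf11 was 2.42 and 2.50 times as high (19 and 25 cells) and Tnfsf8, the CD30 ligand gene, 2.42 and 2.14 times (16 and 26 cells). Dusp14 (2.54 and 3.19 times) and Ifitm2 (2.35 and 2.33 times) were the others. All 6 fell below 2 in at least one library without the highest cell, and 1 gene passed when cells with an Ikzf2 UMI were also left out. Maf, which was higher in Il21-positive cells (1.89 and 1.73 times), stood at 0.496 and 0.570 times in Il2-positive cells.

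Among the receptor chains, Il2ra was highest in ILC2-like and Treg-like cells of the gates described. Gated cells held only 336 of 859 Il2ra UMIs in the WT NOD library and 360 of 1180 in the other. Ungated T cells with more than 2 myeloid UMIs held 322 and 539. ILC2-like cells, type 2 innate lymphoid cells with Gata3 and at most 1 CD3 UMI, stood at 142 CPM (9 UMIs in 15 cells) and 108 CPM (18 UMIs in 37 cells). Treg-like cells stood at 88.9 CPM (69.7 to 112) and 79.5 CPM (64.4 to 97.1), with an overlap with ILC2-like cells and apart from the gate below in both libraries. An Il2ra UMI was found in 27.1% and 24.9% of Treg-like cells, and in 13.7% and 14.1% after thinning, against 0.984% and 0.266% of thinned B-like cells. CD4 T-like cells stood at 13.3 and 13.0 CPM, CD8 T-like cells at 6.52 and 5.16 CPM, and NK-like cells held 1 UMI in each library.

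Part of the CD4 T-like signal of Il2ra came from cells that clustered with Treg-like cells. The CD4 T-like gate held 32 and 46 cells of the cluster whose gated cells were mostly Treg-like, and these stood at 121 and 36.4 CPM. The remaining cells of the gate stood at 10.1 and 11.8 CPM. The cells inside that cluster held no Il2 and no Il21 UMI in either library, with upper interval bounds of 26.2 and 14.9 CPM.

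Migratory DC-like cells, dendritic cells with Ccr7 and Fscn1, held 56 and 42 Il2ra UMIs, 49.8 CPM (37.6 to 64.7) for WT NOD and 23.1 CPM (16.6 to 31.2) for the other library. The 2 intervals did not overlap. Gamma-delta T-like cells stood at 26.6 and 38.2 CPM, and their intervals overlapped those of migratory DC-like cells in both libraries. In a cluster of T cells with Il17a (69 and 81 cells), Il2ra stood at 80.6 and 101 CPM. Of the 80 gated cells of that cluster, 90% were gamma-delta T-like.

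Il2rb, the beta chain, followed NK and T cells. NK-like cells stood at 430 CPM (353 to 519) and 591 CPM (498 to 697), above all other gates with intervals apart in both libraries. An Il2rb UMI was found in 70.3% and 87.5% of NK-like cells, and in 57.9% and 67.3% after thinning, against 0.591% and 0.532% of thinned B-like cells. The median depth of NK-like cells was 3492 and 4413 UMIs. Gamma-delta T-like cells came next with 238 and 336 CPM, then Treg-like cells with 212 and 189 CPM. CD4 T-like cells (132 and 128 CPM) and CD8 T-like cells (116 and 127 CPM) overlapped each other. ILC2-like cells came next, at 31.5 CPM (3.81 to 114) and 95.9 CPM (54.8 to 156). Their intervals overlapped those of CD8 T-like cells in both libraries. B-like cells stood at 2.01 and 3.20 CPM, and no gate of dendritic or macrophage-like cells was above 5.18 CPM. Within CD4 T cells the resting cluster 3 stood at 10.3 and 9.84 CPM.

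Il2rg, the common gamma chain, was found in every gate. ILC2-like cells, 15 and 37 in number, stood at 393 and 390 CPM, and their intervals overlapped that of the next gate in both libraries, Treg-like cells for WT NOD and gamma-delta T-like cells (338 CPM) for the other. In the WT NOD library Treg-like (258 CPM), gamma-delta T-like (250 CPM), B-like (246 CPM), CD4 T-like (240 CPM) and NK-like cells (235 CPM) followed with overlapping intervals, and CD8 T-like cells stood apart below them at 168 CPM. In the library labelled NOD.Cxcl16-/- gamma-delta T-like cells stood apart above B-like cells, at 338 against 270 CPM. Plasma cell-like cells were lowest, at 29.6 and 38.5 CPM. Their interval overlapped that of cDC1-like cells (35.2 CPM) in the WT NOD library and lay apart in the other. Jchain alone took up 42045.5 and 28830.4 CPM of the plasma cell-like gate, and its part in this low level was not tested. Cluster 3, low for Il2rb, was high for Il2rg with 331 and 323 CPM.

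Il21r was broad in lymphocytes, dendritic cells and macrophage-like cells. Treg-like cells stood at 228 and 192 CPM, CD4 T-like cells at 185.5 and 194.3 CPM, gamma-delta T-like cells at 180 and 172 CPM and CD8 T-like cells at 138 and 173 CPM. B-like cells, a main target of interleukin-21, stood at 117 and 136 CPM and NK-like cells at 107.5 and 108 CPM. Migratory DC-like cells stood at 135 and 149 CPM, cDC2-like cells at 89.7 and 105 CPM and cDC1-like cells at 41.3 and 70.1 CPM. Macrophage-like cells stood at 79.5 and 110 CPM. The lowest levels were in plasma cell-like cells (4.0 and 16.2 CPM) and in ILC2-like cells, with 0 and 1 UMI in 15 and 37 cells. The ILC2-like cells, which held the alpha and gamma chains, thus held little Il21r in both libraries, though 0 UMIs there still allow up to 47.2 CPM.

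**Figure D4:**
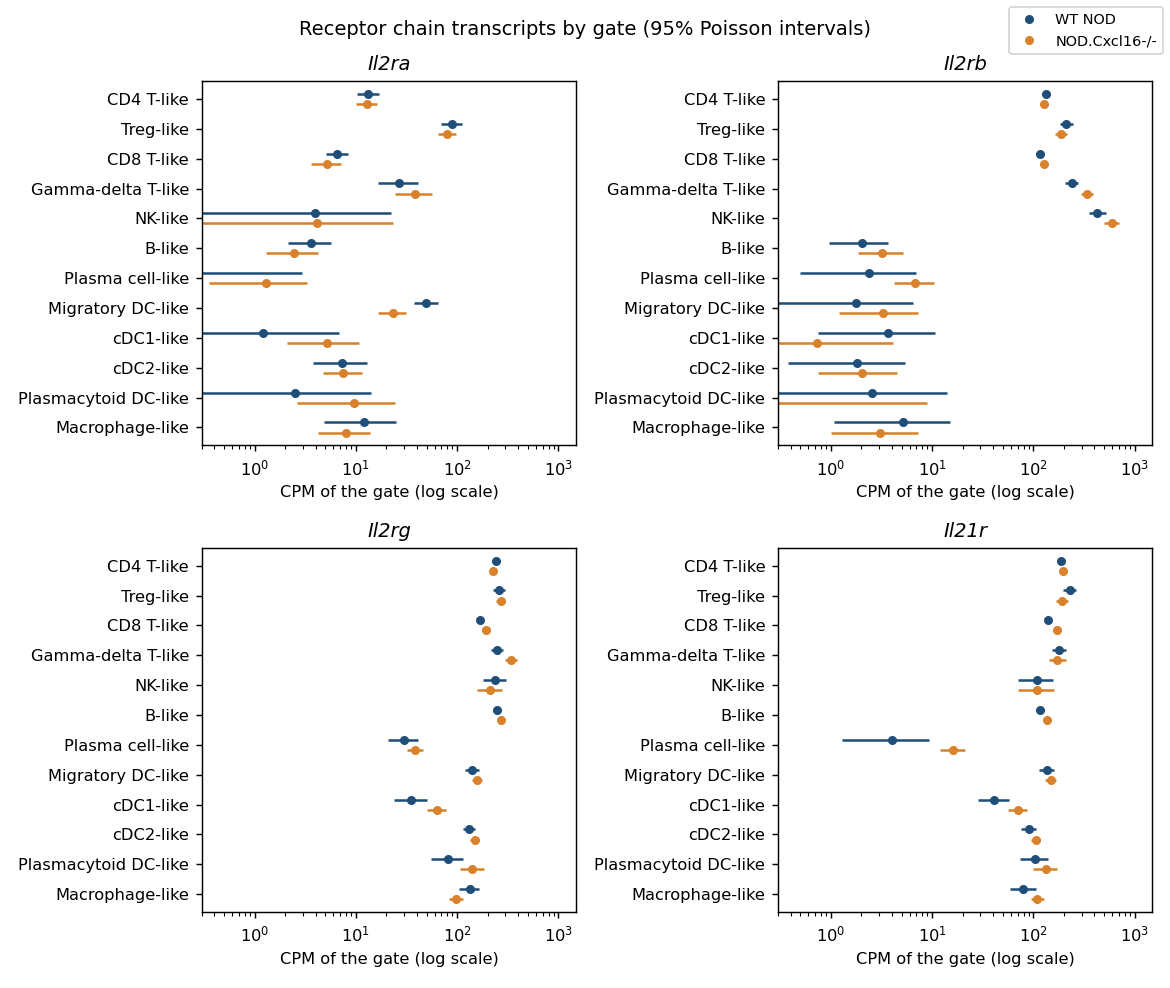
Level of the 4 receptor genes (CPM of the gate, log x axis) in 12 gates with 95% exact Poisson intervals; blue is WT NOD and orange the library labelled NOD.Cxcl16-/-, and a level of 0 has an interval but no point. Of the gates drawn, Il2ra is highest in Treg-like cells (88.9 and 79.5 CPM), Il2rb in NK-like cells (430 and 591 CPM), and Il2rg and Il21r are spread over most gates.

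All 3 interleukin-2 receptor chains were found together in 21 of 166 (12.7%) and 31 of 229 (13.5%) Treg-like cells. In CD4 T-like cells it was 20 (1.9%) and 22 (2.09%) of 1052, and in CD8 T-like cells 22 of 2014 (1.09%) and 16 of 1162 (1.38%). Gamma-delta T-like cells stood at 4 of 167 (2.40%) and 13 of 125 (10.4%). The few ILC2-like cells had shares like those of Treg-like cells, 2 of 15 (13.3%) and 5 of 37 (13.5%). No B-like cell held all 3, which allows a share of up to 0.268% and 0.256%. After thinning, 5 of 146 (3.42%) and 5 of 220 (2.27%) Treg-like cells held all 3, and the share in the other gates was also lower: 6 of 956 (0.628%) and 0 of 1021 CD4 T-like cells (which allows up to 0.294%), 2 of 1581 (0.127%) and 2 of 1092 (0.183%) CD8 T-like cells, and 1 of 154 (0.649%) and 2 of 123 (1.63%) gamma-delta T-like cells. Thinned ILC2-like cells held all 3 in 1 of 15 (6.67%) and 0 of 37 cells, where 0 allows up to 8.11%. Il21-positive CD4 T-like cells held an Il21r UMI in 49.7% and 55.9% of cells, against 43.5% and 49.4% of Il21-negative cells. After thinning this was 33.3% and 32.6% against 28.3% and 29.2%.

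Within CD4 T-like cells neither cytokine gene passed 1.5-fold between the libraries. The log2 ratio of the library labelled NOD.Cxcl16-/- over WT NOD was -0.32 (95% exact interval -0.52 to -0.12) for Il21 and -0.05 (-0.42 to 0.33) for Il2. A ratio was called when it passed 1.5-fold with at least 20 UMIs over both libraries. Neither cytokine was called, and neither was any of the 4 receptor genes in this gate, where 9.81% of all genes with enough UMIs were. Over all kept cells Il21 was 20.4 against 13.6 CPM, a log2 ratio of -0.58 (-0.70 to -0.46), and Il2 was 5.75 against 5.83 CPM. A level over all cells moves with the makeup of the library as well as with the level per cell, and taken alone does not separate them. CD4 T-like cells were 9.82% and 11.3% of the kept cells, and the part of makeup in the ratio over all cells was not tested.

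Over the 6 genes and 12 gates, 44 combinations had enough UMIs and 8 were called, 6 with a higher and 2 with a lower level under the NOD.Cxcl16-/- label. The interval excluded 0 for 5 of the 8. No member was called in Treg-like (15.6% of all genes called), CD8 T-like (11%), gamma-delta T-like (20%), NK-like (22.4%) or cDC2-like cells (16%). The largest ratio was Il21r in plasma cell-like cells, at 2.01 (0.70 to 3.70; 5 and 50 UMIs), in a gate where 37.3% of genes were called. Lyz2, a myeloid gene, stood at 161 CPM there against 4.0 CPM in the WT NOD library and C1qa at 108 against 0 CPM. The part of myeloid transcripts in this ratio was not tested, and with doublets kept it was -0.45.

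Il2ra in migratory DC-like cells was called lower, with a log2 ratio of -1.11 (-1.72 to -0.51), where 23.8% of genes were called. Thinned shares were 11.4% and 4.93%. The WT NOD cells of this gate also held more of the insulin gene Ins1 (1192 against 72.0 CPM) and of C1qa (81.9 against 8.25 CPM), and the part of these in the ratio was not tested. In cDC1-like cells Il21r (0.76, 0.18 to 1.37) and Il2rg (0.83, 0.21 to 1.49) were called higher, where 24.4% of genes were, beside Ccr7 at 98.2 against 17 CPM. Il2rg in plasmacytoid DC-like cells was called higher (0.81, 0.17 to 1.48), where 25.4% of genes were. The B-cell gene Cd79a stood at 216 against 53.0 CPM in that gate, and its part was not tested.

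The other 3 called ratios had intervals that held 0: Il2rb in B-like cells (0.67, -0.54 to 1.96; 10.5% of genes called), Il2rb in plasma cell-like cells (1.5, -0.24 to 3.89) and Il2ra in macrophage-like cells (-0.59, -2.02 to 0.97; 26.9% of genes called). The last was 0.47 when cells took the gate of their cluster. Smaller differences with intervals that excluded 0 were not called. In CD8 T-like cells Il21r (0.32, 0.21 to 0.43), Il2rg (0.21, 0.11 to 0.32) and Il2rb (0.14, 0.01 to 0.26) were all higher in the library labelled NOD.Cxcl16-/-, beside a median of 0.05 over all genes of that gate. Il2rb was also higher in NK-like (0.46, 0.09 to 0.83) and gamma-delta T-like cells (0.50, 0.21 to 0.79). Il2rg was higher in gamma-delta T-like cells (0.44, 0.15 to 0.72) and lower in macrophage-like cells (-0.46, -0.86 to -0.04). With 8 of 44 combinations called, and backgrounds from 9.81% to 37.3%, the members' count lies within the range of all genes.

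**Figure D5:**
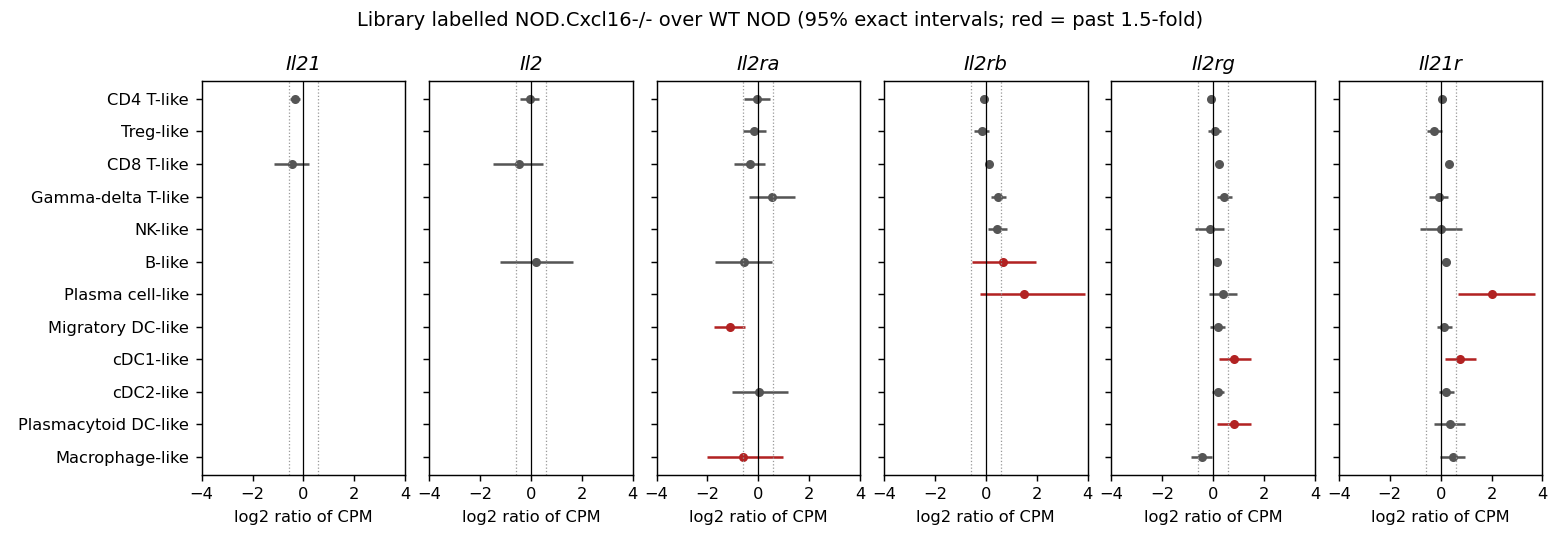
Log2 ratio of CPM, library labelled NOD.Cxcl16-/- over WT NOD, for the 6 genes by gate with 95% exact intervals of counting error; dotted lines mark 1.5-fold, red points lie past it, and combinations under 20 UMIs are not drawn. The CD4 T-like points lie between the dotted lines for all 6 genes, with Il21 at -0.32 and Il2 at -0.05.

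The wider pathway in CD4 T-like cells gave no call between the libraries. No gene was called among 4 genes of the common-gamma-chain family, 12 signal transducers, 14 targets of interleukin-2 and STAT5, 11 interleukin-21 targets, 19 helper genes, 10 Th lineage genes and 19 regulators of Il2 with enough UMIs. In Treg-like cells, where 15.6% of all genes were called, 2 of 11 interleukin-21 targets were called higher and none lower: the inhibitory cytokine Il10 (62.1 against 109 CPM) and the cytotoxic granule gene Gzmb (40.2 against 66.3 CPM). Gzmb is also a listed target of interleukin-2 and STAT5. Of 19 regulators of Il2 in that gate none was called higher and 2 lower, the immediate early genes Egr1 (47.5 against 26.5 CPM) and Nr4a1 (76.7 against 50.5 CPM). In CD8 T-like cells, where 11% of genes were called, none of 11 interleukin-21 targets was called higher and 1 was lower, Il10 (5.35 against 3.07 CPM), with a list median of -0.18 on the log2 scale. Stat3, the main transducer of interleukin-21, was called higher there (230 against 345 CPM, log2 ratio 0.59) and Socs2 lower (4.86 against 2.09 CPM). In NK-like cells, where 22.4% of genes were called, 4 of 7 interleukin-21 targets were called higher. These were Gzmb (299 against 520 CPM), Xbp1, a regulator of secretory cells (39.8 against 91.6 CPM), and Bcl6 and Batf, whose intervals held 0. In the same gate 3 of 7 Th lineage genes were called lower and 1 higher, Tbx21 (83.6 against 129 CPM), whose interval held 0. Of 15 regulators of Il2 there, 3 were called lower and none higher. In B-like cells, where 10.5% of genes were called, 2 of 10 interleukin-21 targets were called higher, Fas, the death receptor gene (19.1 against 38.2 CPM), and Il10 (2.01 against 3.39 CPM), whose interval held 0. Transcripts of islet endocrine cells differed in the same gates. Of 4 such genes, the insulin genes Ins1 and Ins2 were higher under the NOD.Cxcl16-/- label by log2 ratios of 3.08 and 3.26 in Treg-like and 1.71 and 1.32 in B-like cells, all 4 were called higher in CD8 T-like cells (median 1.51), and Ins2 was higher by 2.57 in NK-like cells. The T-cell gene Trac was lower by a log2 ratio of -1.62 in B-like cells. The part of these transcripts in the counts was not tested. In gamma-delta T-like cells (20% of genes called) 1 of 9 interleukin-21 targets was called higher and 1 lower. In cDC2-like cells (16%) 1 of 10 was higher and 2 lower. In plasma cell-like cells (37.3%) 4 of 9 were higher and 1 lower, and in macrophage-like cells (26.9%) 2 of 10 were higher. In migratory DC-like (23.8%) and plasmacytoid DC-like cells (25.4%) 1 of 8 and 1 of 6 were higher. None of 7 was called in cDC1-like cells (24.4%).

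Genes that neighbour Il2 and Il21 in the Idd3 interval were measured in the same cells. In CD4 T-like cells 4932438A13Rik stood at 163 and 167 CPM, Spry1 at 69.5 and 73.2 CPM, Spata5 at 55.6 and 59.3 CPM and Fgf2, a fibroblast growth factor gene, at 5.00 and 5.29 CPM. None of the 8 neighbours and cytokines of this list with enough UMIs was called. Adad1 overlaps Il2 on the opposite strand by 1408 bases and held 1 and 8 UMIs in these cells. Gm12534 overlaps Il21 on the opposite strand by 1137 bases. Whether the counting used strand is not given in the sources used here, so reads of these overlaps may be split or lost.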

How the data were processed

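The deposited matrices give UMI counts without normalisation, made by the authors with Cell Ranger 7.0.1 on the mouse build mm10, per the submitters' processing notes. Whether intronic reads or strand were used in counting is not given in the sources used here, nor is the number of mice behind each library. Barcodes with under 500 genes (1582 and 311 in WT NOD and NOD.Cxcl16-/-) were dropped, as were those above 10% mitochondrial UMIs (53 and 84). Doublet scores came from comparison with simulated doublets, and the top 0.8% per 1000 barcodes were removed (1537 and 891). Cells were assigned by marker gates: 16 were set, 13 had at least 50 cells over both libraries and are described, and 12 had at least 20 cells in each and are compared. The gates do not use a member gene, and cells that met 2 gates (26 and 48) stayed ungated. B-like limits and a limit of 2 myeloid UMIs leave deep or mixed cells ungated.

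UMIs were summed per gate and library and scaled to CPM with exact Poisson intervals, log2 ratios carry exact conditional binomial intervals, and shares carry Clopper-Pearson intervals after thinning to 2000 UMIs, all at the 95% level and all for counting error only. Clusters came from 2000 variable genes, 50 components, 20 neighbours and Leiden resolution 1 (scanpy 1.11.5, igraph 0.11.9, Python 3.11.15). Genes were named by rule: every member, the 3 genes most like each member over gates, the 10 genes with the highest smaller ratio in cytokine-positive cells, and 2 to 4 examples of each gene list. Some further genes of the clusters and lists were chosen after their values were seen. Coordinates are from GENCODE M21, which holds 32158 of the 32285 gene IDs, and promoter sequences are from RefSeq, which matched 5 of the 6 members. The calculation of ratios was checked on simulated counts with known changes, which is no test of a difference between the libraries. The members, gates, lists and tests were chosen with earlier results of these data known.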

Additional observations from a re-analysis of the deposited data

How the results depend on the processing

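CD4 T-like cells kept the highest level of Il2 and Il21, and Treg-like cells of Il2ra, in both libraries in 10 of 10 settings, among gates with at least 20 cells in each library. NK-like cells led Il2rb in 9 of 10. Values are given as WT NOD and NOD.Cxcl16-/-. With ribosomal, mitochondrial and immunoglobulin genes out of the denominator, levels rose by construction: Il2 33.4 and 31.8 and Il21 126 and 99.3 CPM in CD4 T-like cells, Il21r 299.6 and 249.5, Il2ra 117 and 103 and Il2rg 339.6 and 348 CPM in Treg-like cells, and Il2rb 558 and 769 CPM in NK-like cells. With cells assigned by cluster majority, Il2 was 18.1 and 18.7 CPM, Il21 82.0 CPM in the WT NOD library and Il2ra 128 and 104 CPM, the CD4 T-like share of gated Il21-positive cells was 70.9% and 65.5%, and the log2 ratio of Il2ra in macrophage-like cells was 0.47. As a mean over cells, WT NOD Il2 was 17.8 CPM. With 2 UMIs required, the CD4 T-like share was 91.7% for Il21 in the WT NOD library and 88.9% and 95.2% for Il2. With doublets kept, the log2 ratio of Il21r in plasma cell-like cells was -0.45. Without Ikzf2-positive cells, 1 gene passed in Il2-positive cells. Among alternatives chosen after seeing the data, WT NOD Il2 was 16.2 CPM without its highest cell, with an interval that then overlapped the next gate. With limits that grew with depth, Treg-like Il2rg was 206 CPM under the NOD.Cxcl16-/- label, the Il21 shares were 74.6% and 79.8%, and 133 and 18 genes passed in Il21-positive and Il2-positive cells. With at least 10 carrying cells, 3 genes passed in Il2-positive cells. The cause of these moves was not tested. Il2ra in migratory DC-like cells was called in 9 of 9 settings (-1.12 to -0.67). Few cells limit the depth of the ILC2-like (15 and 37 cells), plasmacytoid DC-like (51 and 41), cDC1-like (43 and 75) and NK-like gates (74 and 56). No paired analysis was possible because each group has 1 library.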

Other observations

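The genes whose levels over the gates were most like those of each member are given as a description, over 24 points (12 gates in 2 libraries) and among 11692 genes, where points of 1 library share its depth. For Il21 these were Sh3rf2 (Pearson r 0.94), Gm14718 (0.94) and Mmp10, a matrix metalloproteinase gene (0.93), each highest in CD4 T-like cells. For Il2 the likeness was lower, with 1700019D03Rik, Mafg and Lancl3 at 0.73. For Il2rb it was Ms4a4b (0.97), Gimap1os (0.96) and Nkg7, a cytotoxic granule gene (0.96). For Il2ra it was Tnip1 (0.82), Srgn, the gene of the granule proteoglycan serglycin (0.81), and Plgrkt (0.81). For Il21r it was Taf1 (0.95), Tomm34 (0.94) and Cdk12 (0.94), and for Il2rg Zfp869 (0.96), Eif1 (0.94) and Cdk11b (0.93).

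Receptor levels also differed among CD8 T-like clusters. Cluster 5, led by Ccl5, Gzmb and Cxcr6, held Il2rb at 204 and 208 CPM and Il2rg at 135 and 170 CPM (WT NOD and NOD.Cxcl16-/-). Cluster 4, led by Dapl1 and Lef1, held Il2rb at 85.3 and 96.9 CPM and Il2rg at 290 and 273 CPM. Cluster 6, led by mitosis genes, held Il21 at 22.6 and 20.1 CPM, with median depths of 17557 and 20878 UMIs. Of its 776 cells 233 were gated, and 78.5% of these were CD8 T-like. Beside Cd8a at 321 and 287 CPM, cluster 6 held Cd4 at 29.4 and 47.6 CPM and Foxp3 at 6.60 and 18.8 CPM. Which type of cell in this cluster held the Il21 UMIs was not tested. The cells of cluster 19, led by Crtam, Cd160 and Xcl1, held Il21 at 9.72 and 10.6 CPM, and those of cluster 17, led by Hopx and Gzmk, held none.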
